A study of Mus musculus with 29 samples.

Results

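The fatty acid desaturases and elongases described here are 10 genes taken by name from the deposited table of 30818 gene symbols: the stearoyl-CoA desaturases Scd1, Scd2, Scd3 and Scd4, the front-end desaturases Fads1 and Fads2, and the elongases Elovl1, Elovl3, Elovl5 and Elovl6. All 10 were in the table, and 10 of 10 passed the low-value filter that left 19387 genes for testing. Transcripts were measured by RNA-seq in mammary fat of wild-type C57BL/6N mice in 29 libraries and 6 groups. Every mouse was a tumour host, since E0771 cells, a mouse mammary cancer line, were injected into gland 4 in week 25. Gland 9, on the opposite side, was sequenced. Sample titles start with tumor and the cell line label names E0771, although normal tissue is what the tissue label states. The labels give no age beyond that week and no agent other than diet.

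Control mice (5 libraries) ate the control diet D12450J throughout. All other mice were first made obese on the diet D12492 with 60% fat, so the obese phase was shared by the Obese group and the 4 weight-loss groups. Obese mice (5) stayed obese. The others lost weight on low-fat food without restriction (LFD, 5), the same kind of food cut by 30% in calories (LFCR, 5), Mediterranean-style food also cut by 30% (MCR, 4) or calories restricted intermittently (ICR, 5). All comparisons with Obese share the same 5 Obese libraries, and those with Control share the same 5 Control libraries.

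Stearoyl-CoA desaturases put the first double bond into saturated acyl chains made in the cell or taken from the diet, and their products, palmitoleate and oleate, are the main monounsaturated fatty acids of stored fat. Elongases add carbon pairs to acyl-CoA in the endoplasmic reticulum, each with its own preferred chain length, and the front-end desaturases Fads1 and Fads2 work with Elovl5 to turn dietary linoleate and linolenate into long polyunsaturated fatty acids. In adipocytes the saturated and monounsaturated branch is coupled to fatty acid synthesis and is known to respond to dietary carbohydrate, insulin and polyunsaturated fat, chiefly through SREBP-1c, ChREBP and liver X receptors.

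The 4 Scd genes lie side by side on chromosome 19 (GRCm38) and resemble each other so closely that reads could be shared. Scd3 is at chr19:44203269-44244016, Scd2 at chr19:44293674-44306864, Scd4 at chr19:44333092-44346743, all on the plus strand, and Scd1 at chr19:44394455-44407879 on the minus strand. Their coding sequences match that of Scd1 at 89.8% of aligned bases for Scd2, 90.4% for Scd3 and 84.5% for Scd4. The stretch of coding sequence in which they are most alike is printed from the GENCODE vM21 transcripts, 228 bases from coding base 442 of Scd1, because it decides how far their values can be separated. Capitals in Scd1 mark positions at which any of the other 3 differs, and capitals in the others mark bases that differ from Scd1.
Scd1: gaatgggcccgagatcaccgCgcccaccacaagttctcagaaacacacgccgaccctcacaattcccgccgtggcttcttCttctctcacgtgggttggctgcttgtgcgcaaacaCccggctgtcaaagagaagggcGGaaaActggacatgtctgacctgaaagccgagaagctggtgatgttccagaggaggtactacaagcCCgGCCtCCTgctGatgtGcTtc
Scd2: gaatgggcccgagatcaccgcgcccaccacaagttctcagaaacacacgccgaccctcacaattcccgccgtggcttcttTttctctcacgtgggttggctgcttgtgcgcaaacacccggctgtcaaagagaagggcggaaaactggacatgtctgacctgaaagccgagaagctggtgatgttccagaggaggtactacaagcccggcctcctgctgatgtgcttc
Scd3: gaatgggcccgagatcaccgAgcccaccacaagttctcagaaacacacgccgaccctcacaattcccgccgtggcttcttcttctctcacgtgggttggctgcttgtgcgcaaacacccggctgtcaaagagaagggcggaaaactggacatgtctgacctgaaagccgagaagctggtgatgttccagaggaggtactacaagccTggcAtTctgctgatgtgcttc
Scd4: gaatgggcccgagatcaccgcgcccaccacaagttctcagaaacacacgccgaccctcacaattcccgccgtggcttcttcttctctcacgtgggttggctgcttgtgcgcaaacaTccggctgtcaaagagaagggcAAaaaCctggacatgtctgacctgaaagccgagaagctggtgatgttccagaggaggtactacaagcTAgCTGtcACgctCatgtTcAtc
Within this stretch Scd2 differed from Scd1 at 1 base, Scd3 at 4 and Scd4 at 14. The longest run shared by Scd1 and Scd3 was 185 bases, longer than a read of 76 bases. Of the 3473 windows of 76 bases in the Scd3 exons, 110 (3.17%) also occur in Scd1. Normalized counts of Scd1 were 16156 to 71111 times those of Scd3 in the 29 libraries, so even a small share of wrongly placed Scd1 reads could be as large as the Scd3 count, and Scd3 and Scd4 values are uncertain for that reason. For Scd2 the factor was 37.4 to 407, and 77 of its 5461 windows (1.41%) also occur in Scd1. Scd2 values may therefore hold Scd1 reads too, which was not tested. The sources used here do not say how reads matching several genes were counted. No window of 76 bases was shared between Fads1 and Fads2 or among the 4 elongases.

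Fads1 (chr19:10182888-10196877, plus strand) and Fads2 (chr19:10062765-10101746, minus strand) are neighbours, and Elovl3 lies at chr19:46131897-46135694. Elovl1 is at chr4:118428093-118432953, Elovl5 at chr9:77917364-77984519 and Elovl6 at chr3:129532355-129638495, all on the plus strand. All 10 are annotated as protein-coding. RefSeq windows of the 250 bases before a start site (GRCm38.p6) matched 6 of the 10. They are shown for Elovl6, which changed most, and Elovl1, which changed in the opposite direction. The Elovl6 window is cut to the 219 bases that lie before its GENCODE start (chr3:129532136-129532354), and Elovl1 is printed whole (chr4:118427843-118428092), both on the plus strand with capitals on motif matches.
Elovl6: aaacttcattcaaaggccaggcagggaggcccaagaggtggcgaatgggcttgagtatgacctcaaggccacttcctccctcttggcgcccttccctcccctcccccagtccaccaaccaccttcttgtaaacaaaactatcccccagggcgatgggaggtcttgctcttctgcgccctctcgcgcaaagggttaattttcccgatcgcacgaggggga
Elovl1: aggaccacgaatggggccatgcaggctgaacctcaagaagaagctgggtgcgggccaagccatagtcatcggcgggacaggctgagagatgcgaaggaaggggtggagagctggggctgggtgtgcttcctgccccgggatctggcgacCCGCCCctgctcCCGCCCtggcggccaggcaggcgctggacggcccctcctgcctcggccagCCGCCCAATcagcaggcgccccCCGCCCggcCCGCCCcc
Motifs were searched on both strands as exact letters. The GC box, bound by Sp1-type factors, was taken as GGGCGG. The E-box, read by basic helix-loop-helix factors such as SREBP-1, was taken as CACGTG. The CCAAT box was its 5 letters alone. Nuclear receptor elements were direct repeats of AGGTCA with 1 base (DR1) or 4 bases (DR4) between the copies. The carbohydrate response element and the sterol regulatory element of the LDL receptor gene were searched by their textbook letters. The Elovl6 window held none of them. The printed Elovl1 window held 5 GC boxes and 1 CCAAT box, of which the GC box at -39 to -34 overlaps the CCAAT box at -35 to -31, counted from the start site. Another Elovl1 window (chr4:118429451-118429700) lies inside the gene and is not printed. It held GC boxes at -48 to -43 and -37 to -32 and none of the other motifs. Of the windows of other members, also not printed, that of Elovl5 held an E-box at -161 to -156. It also held CCAAT boxes at -71 to -67 and -17 to -13. The Fads2 window held a GC box at -186 to -181, and those of Scd3 and Scd4 held no match. Among 32851 RefSeq windows of the same length, 32.7% held a GC box, 33.9% a CCAAT box, 6.02% an E-box, 0.0731% the sterol regulatory element, 0.0457% the carbohydrate response element, 0.0335% a DR1 and 0.0152% a DR4 element. These matches describe letters in a window and not binding.

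Libraries held 16403903 to 49026986 reads recovered from the deposited values, with a median of 37270234, and the 5 libraries whose column names carry lane 4 were the shallowest. Those were Control 3, Obese 3, LFD 3, MCR 2 and ICR 2, so LFCR was the only group without a library in that lane. B cell markers split the libraries, with a mean of 6.15 to 7.04 (log2) in 8 libraries and 10.5 to 13.1 in the other 21. These 8, called lymphoid-poor below, were Obese 1, Obese 5, LFD 1, LFCR 1, LFCR 3, MCR 1, MCR 3 and MCR 4. None was a Control or ICR library, so B cell content was not balanced between groups. Mature adipocyte markers, all 8 of them above 0 in every library, had a summed normalized count per library of 202550 to 523273 for Control, 363939 to 749488 for Obese, 532836 to 676703 for LFD, 681372 to 1180691 for LFCR, 444290 to 1081057 for MCR and 577413 to 857970 for ICR. The labelled fat tissue therefore carried its defining markers throughout, at levels that differed between groups. In such bulk tissue, fewer cells of a type and less RNA per cell cannot be told apart, and marker lists that moved with a comparison are given beside it. Each sample title carries a number of its own, read here as 1 mouse per library although no label states it. Libraries of a group differed by more than counting noise, with a chi-square per gene of at least 22.4 over the 56 pairs within groups, and the p-values rest on that spread.

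Scd1, the main stearoyl-CoA desaturase of adipocytes, was the most abundant transcript of all genes by reads in 27 of 29 libraries and ranked second in the other 2. It took 0.860% to 9.84% of all reads in a library, and 95.1% to 99.1% of the reads of the 10 genes together. Per kilobase of exon, the median level over the 29 libraries was 283485 normalized counts for Scd1, against 1637 for Scd2, 1053 for Elovl6, 1022 for Fads1, 924 for Elovl5, 422 for Elovl1, 165 for Fads2, 10.0 for Scd3, 9.39 for Elovl3 and 7.24 for Scd4. The genes therefore span more than 4 orders of magnitude in level.

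**Figure D1:**
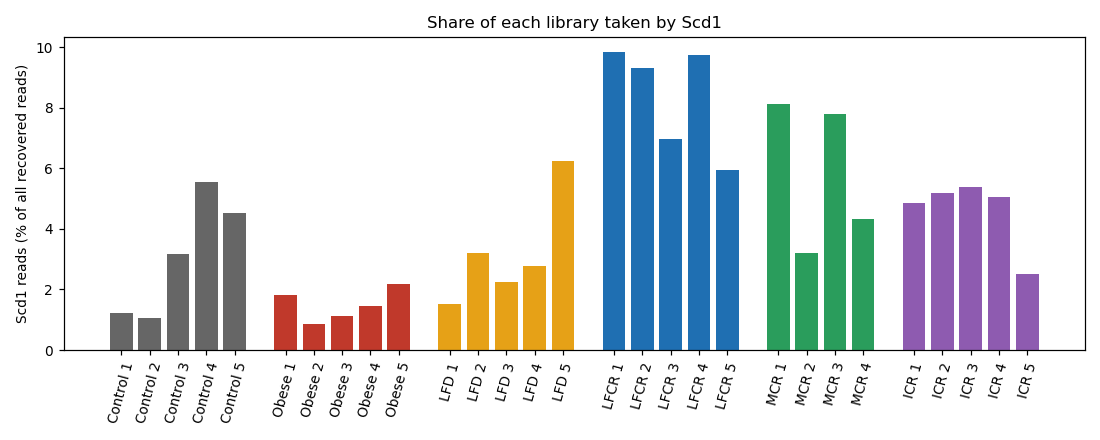
Bars give the percentage of all recovered reads taken by Scd1 in each of the 29 libraries, coloured by diet group, on an axis that starts at 0. The share ran from 0.860% to 9.84%, and all 5 LFCR libraries lay above all 5 Obese libraries.

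As a share of reads, Scd1 averaged 8.37% ± 1.79 in LFCR, 5.86% ± 2.46 in MCR, 4.60% ± 1.18 in ICR, 3.20% ± 1.82 in LFD, 3.11% ± 1.98 in Control and 1.49% ± 0.536 in Obese (SD, n = 5, MCR n = 4). The normalized counts used below keep the scale of the deposited table. Scaling by total reads in its place moved the median of all genes by -0.26 for LFCR against Obese, by -0.34 for LFCR against Control and by -0.14 for MCR against Obese.

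Normalized counts of Scd1 in Control libraries 1 to 5 were 336173, 313436, 974916, 1817067 and 1386809. In Obese they were 634117, 254528, 334877, 430918 and 749163. Control was thus split into 2 low and 3 high libraries, and the Obese range fell across the lower of them. In LFD Scd1 stood at 472912, 978591, 669964, 870137 and 2041110, with LFD 5 far above the rest. In LFCR it stood at 4283229, 3652649, 2662750, 3556705 and 1983419, every library above all Obese and all Control libraries. MCR libraries held 3001167, 959877, 2921212 and 1439802, and ICR libraries 1597795, 1777232, 1799779, 1770477 and 782491. Both groups lay wholly above Obese, with ICR 5 the nearest to the highest Obese library. The order of the group means was LFCR, MCR, ICR, LFD, Control, Obese, and LFCR did not overlap ICR, while MCR overlapped both LFCR and ICR and Control overlapped LFD and Obese.

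Elovl6 extends palmitate and palmitoleate to the next chain length and so supplies stearate to Scd1. Its normalized counts were 1896, 1185, 6471, 43641 and 38654 in Control and 793, 702, 872, 669 and 1071 in Obese. The Obese libraries were the tightest group and all lay below all Control libraries, which themselves spread over more than 1 order of magnitude. LFD libraries held 1528, 3675, 2240, 10218 and 27521, and LFCR libraries 51420, 105956, 36886, 70728 and 33858. MCR libraries held 56326, 14862, 30113 and 6829, and ICR libraries 5222, 1650, 26816, 6772 and 1360. All 4 weight-loss groups lay wholly above Obese, LFCR lay wholly above LFD and ICR, and ICR 3 stood apart from the other ICR libraries. By mean the order was LFCR, MCR, Control, LFD, ICR, Obese. Control, LFD and ICR overlapped each other.

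**Figure D2:**
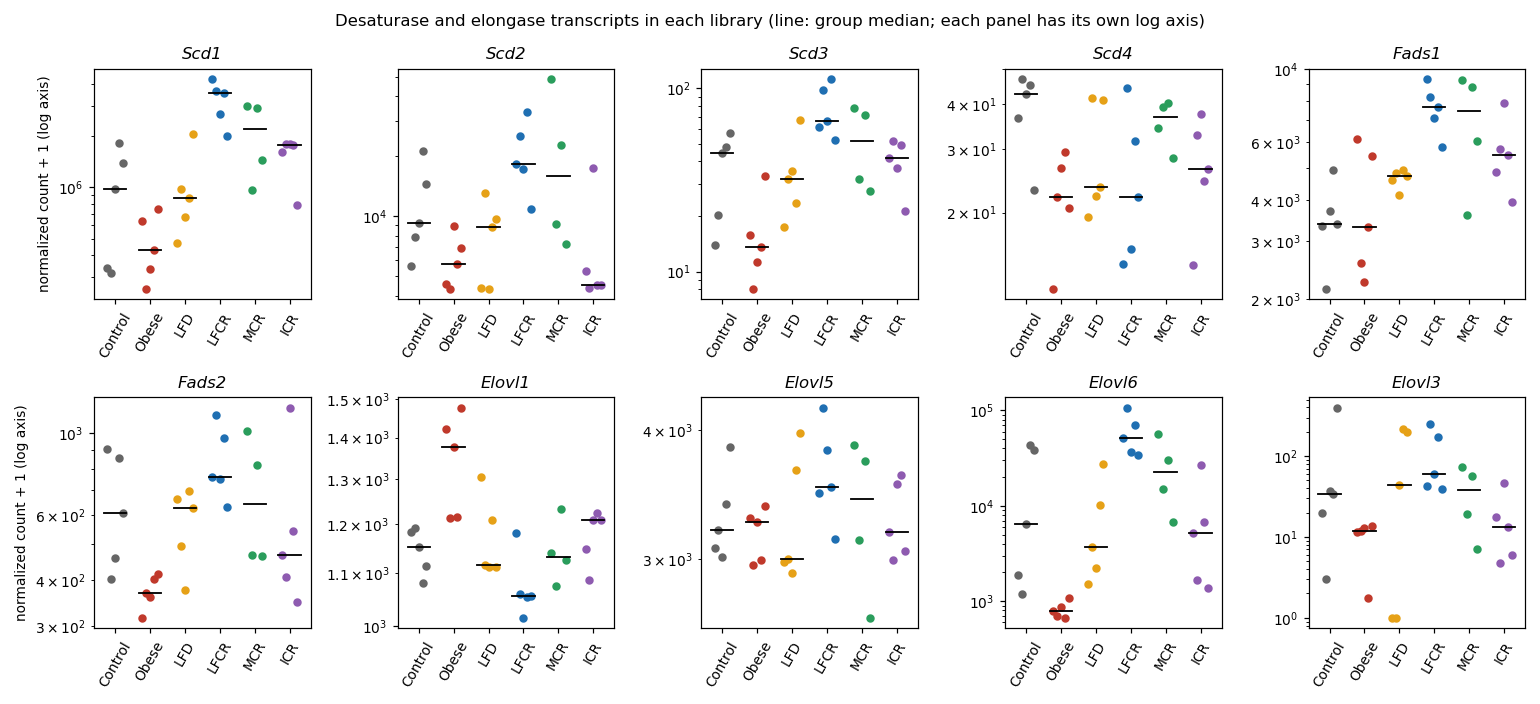
Each panel plots 1 gene, with the normalized count plus 1 of every library on a logarithmic axis, libraries coloured by the 6 groups and a line at each group's median. LFCR libraries of Scd1 (1983419 to 4283229) and Elovl6 (33858 to 105956) lie above every Obese library, whereas Elovl5 and Elovl1 move within a narrow range.

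The first comparison asks what remaining obese on the high-fat diet did relative to lean mice. Elovl6 fell and Elovl1 rose, and the other 8 did not pass the test. These 2 of 10 genes compare with 12.9% of all genes tested that passed in either direction (9.44% higher and 3.44% lower in Obese), and the groups of 2 genes, the same ones, did not overlap (9.15% of all genes). The median log2 difference was -0.67 over the 10 genes and -0.03 over all genes tested. Elovl6 averaged 821 ± 161 normalized counts in Obese and 18370 ± 20966 in Control (SD, n = 5 each), a log2 difference of -3.19 ± 0.92 (SE, limma, adjusted p = 0.0232). It was lower in Obese in all 4 lanes that hold both groups, by -5.97 to -0.73. That call was lost without Control 4 (adjusted p = 0.0641, limma), Control 5 (0.0832) or Obese 1 (0.0587), and also without the 8 lymphoid-poor libraries. With the mean of the 6 brown and beige adipocyte markers as a covariate the difference was -1.34 (adjusted p = 0.268, limma). That marker mean was 7.78 ± 1.31 (log2) in Control and 6.24 ± 0.37 in Obese, with a summed count of 331 to 7784 and 254 to 644, and its part in the difference was not tested beyond this fit.

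Elovl1 elongates saturated and monounsaturated very long chains for sphingolipids. It held 1183, 1192, 1151, 1080 and 1114 normalized counts in Control and 1422, 1211, 1375, 1215 and 1475 in Obese. Obese lay above Control in every library, by a small margin (log2 difference 0.22 ± 0.06, adjusted p = 0.0262, limma). The call was lost without Control 4 (0.0553), Control 5 (0.0642), Obese 1 (0.0907) or Obese 5 (0.102), and without the 8 lymphoid-poor libraries (0.14, adjusted p = 0.239). Elovl1 shares 53 exon bases with Cdc20 on the opposite strand, and the strand setting of the counting is not known here.

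The Scd genes did not pass between Obese and Control in the main fit. The log2 difference was -0.78 for Scd1 (95% interval -1.75 to 0.19), -0.83 for Scd2 (-1.81 to 0.15), -0.64 for Scd3 (-1.20 to -0.09) and -0.49 for Scd4 (-0.87 to -0.11), with adjusted p of 0.268, 0.242, 0.112 and 0.0770 (limma). At an unadjusted p under 0.05, 5 of the 10 genes passed: Scd3, Scd4, Fads2, Elovl1 and Elovl6. The share of all genes at that threshold was not counted. Such numbers, here and below, are therefore counts only and show no excess. Scd4 passed as lower without Control 5 (-0.60, adjusted p = 0.0492). Over other settings Scd1 stayed uncalled in 15 of 16, Scd2 in 16 of 16, Scd3 in 15 of 16 and Scd4 in 13 of 15. The lowest adjusted p was 0.00612 for Scd1, 0.0105 for Scd3 and 0.0184 for Scd4 (limma). Control 1 and 2, the low Scd1 libraries, had summed mature adipocyte counts of 202550 and 211907, against 413581 to 523273 in the other Control libraries. Markers of other cells also moved in this comparison: 5 of 5 red blood cell markers were higher in Obese, with a summed count of 19965 to 89041 against 8755 to 12817 in Control, and 3 of 10 luminal epithelium markers were lower. Their part in the results was not tested for red blood cells. The B cell marker mean ran from 6.37 to 12.6 (log2) in Obese and from 11.6 to 13.1 in Control.

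**Figure D3:**
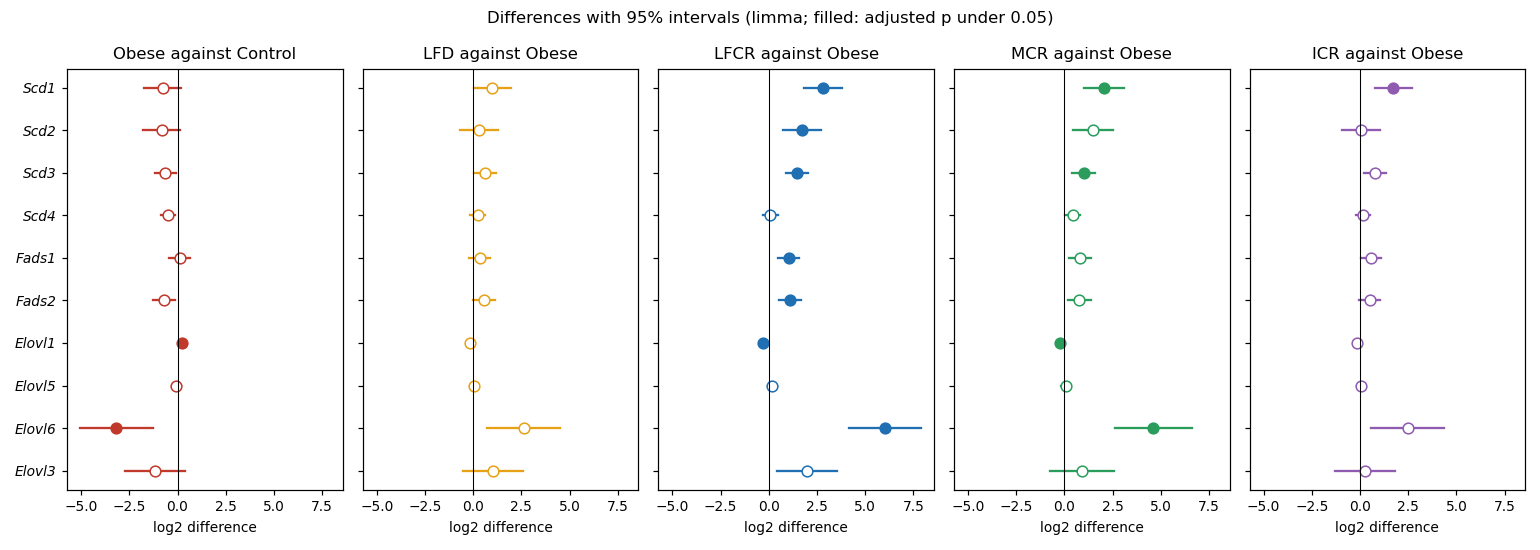
Points give the log2 difference of each gene in 5 comparisons with lines for the 95% interval, filled where the adjusted p was under 0.05 (limma). The filled points number 2 for Obese against Control, 0 for LFD, 7 for LFCR, 4 for MCR and 1 for ICR against Obese, and Elovl6 has the widest span.

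The next 4 comparisons ask what each weight-loss diet changed relative to remaining obese. With LFD, 0 of 10 genes passed in limma, against 5.98% of all genes tested. Voom on the recovered reads likewise called 0, and 5 genes had an unadjusted p under 0.05. Elovl6 averaged 9037 ± 10890 normalized counts in LFD against 821 in Obese (log2 difference 2.63, 95% interval 0.74 to 4.52, adjusted p = 0.0896, limma), and its groups did not overlap. It was the only gene of the 10 without overlap, against 5.44% of all genes. For Scd1 the difference was 1.00 (0.02 to 1.97, adjusted p = 0.232). Elovl1 (-0.19, adjusted p = 0.0814) passed as lower without Obese 4 (-0.22, 0.0435) or LFD 1 (-0.23, 0.0421). Of 10 luminal epithelium markers, none at 0 in any library, 7 were higher in LFD, with a summed count of 20126 to 67697 against 13088 to 22399 in Obese, and 2 of 6 brown and beige markers were higher. With the mean of either list as a covariate 0 of the 10 genes likewise passed. Over the 16 other settings, which include these fits, the Elovl6 difference ran from 0.55 to 3.18. That of Scd1 ran from 0.12 to 1.64. The part of these markers was not tested beyond such fits.

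With LFCR, 6 genes rose and 1 fell. The 7 of 10 compare with 21.4% of all genes tested (11.9% higher, 9.42% lower), and the median log2 difference was 1.29 over the 10 genes and -0.04 over all genes. Groups did not overlap for 7 genes, 6 of them higher in LFCR, against 15.0% of all genes (8.82% higher). Elovl6 rose from 821 ± 161 to 59770 ± 29656 normalized counts (n = 5 each), a log2 difference of 6.03 ± 0.92 (adjusted p = 5.74e-05, limma) and a ratio of mean counts of 72.8. Scd1 rose from 480721 ± 206462 to 3227750 ± 904208, a ratio of 6.71 (log2 difference 2.81 ± 0.47, adjusted p = 0.000150). Leaving out any 1 library ended none of the 7 calls. Quantile normalization, which sets the most abundant transcript of every library to the same value and so acts on Scd1 by construction, gave Scd1 a difference of 0.53 (adjusted p = 0.0703).

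Scd2 is the desaturase form found widely in brain and embryonic skin as well as in fat. Its normalized counts were 4558, 4336, 8944, 5730 and 6927 in Obese and 18184, 25303, 17170, 33368 and 10814 in LFCR. Every LFCR library was above every Obese library, and the log2 difference was 1.73 ± 0.47 (adjusted p = 0.00994, limma). In Control Scd2 ran at 5632, 7828, 9193, 21294 and 14555, and in LFD at 4350, 13127, 4320, 8847 and 9699. In MCR it stood at 48573, 9177, 22766 and 7235, and in ICR at 5325, 4369, 17338, 4524 and 4503. MCR 1 held the highest Scd2 level of any library, and 4 of the 5 ICR libraries lay inside the Obese range.

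Scd3 and Scd4 were scarce. Scd3, known from sebaceous gland and skin, held 14.8, 7.05, 10.3, 12.7 and 32.1 normalized counts in Obese and 60.2, 97.3, 65.6, 111 and 51.1 in LFCR. The groups did not overlap, and the log2 difference was 1.47 ± 0.27 (adjusted p = 0.000324, limma), a value that the transform of the table compresses at such low counts. In the other groups Scd3 ran from 13.0 to 55.8 in Control, 16.5 to 65.9 in LFD, 26.5 to 76.7 in MCR and 20.4 to 50.7 in ICR. Given the shared sequence printed above, part of the Scd3 count may be Scd1 reads, which was not tested. Of 7 sebaceous gland markers, 3 (Awat1, Dgat2l6 and Gal) were at 0 in some libraries and the group means of the list ran from 5.08 to 5.44 (log2). Of the 5 that could be tested, 1 passed as higher in LFCR than in Obese.

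Scd4, the form first described in heart, did not follow the others. Its normalized counts ran from 11.3 to 28.4 in Obese, 22.2 to 45.9 in Control, 13.4 to 43.2 in LFCR, 18.5 to 40.6 in LFD, 27.3 to 39.4 in MCR and 13.3 to 36.6 in ICR. Its log2 difference between LFCR and Obese was 0.09 (95% interval -0.29 to 0.47, adjusted p = 0.782, limma) and -0.04 with voom scaled by total reads, and Control held the highest mean.

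Fads1 and Fads2 carry the delta-5 and delta-6 steps of polyunsaturated fatty acid synthesis. Fads1 held 3342, 2148, 3710, 4938 and 3391 normalized counts in Control, 6136, 2584, 2263, 3301 and 5457 in Obese and 9312, 8225, 7080, 7658 and 5786 in LFCR. LFCR lay wholly above Control and overlapped Obese only through LFCR 5 and Obese 1, and Fads1 rose against Obese with a log2 difference of 1.04 ± 0.26 (adjusted p = 0.00582, limma). It ran from 4130 to 4920 in LFD, 3596 to 9262 in MCR and 3948 to 7874 in ICR. Obese and Control could not be separated for Fads1 (0.11, 95% interval -0.44 to 0.65).

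Fads2 held 902, 402, 458, 856 and 607 normalized counts in Control, 315, 367, 359, 402 and 413 in Obese and 756, 1116, 749, 966 and 630 in LFCR. Obese had the lowest mean and the smallest spread, LFCR lay wholly above it, and the log2 difference was 1.11 ± 0.27 (adjusted p = 0.00423, limma). In LFD it ran from 375 to 694, in MCR from 464 to 1009 and in ICR from 348 to 1167, where ICR 3 stood apart. The median ratio of Fads1 to Fads2 counts was 5.58 in Control, 7.56 in LFD, 8.21 in Obese, 9.18 in LFCR, 9.99 in MCR and 10.4 in ICR.

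Among the elongases other than Elovl6, Elovl1 fell in LFCR to 1179, 1059, 1014, 1054 and 1054 normalized counts, all below Obese (log2 difference -0.31 ± 0.06, adjusted p = 0.00110, limma). Of 6 macrophage markers, none of them at 0 in any library, 5 fell in the same comparison, with a summed count of 6511 to 17482 in LFCR against 15600 to 27381 in Obese, and 2 were higher in Obese than in Control (10744 to 24731). Their part in the Elovl1 differences was not tested. Elovl5, which elongates polyunsaturated chains, varied little, from 2631 to 4199 over all 29 libraries. Its log2 difference between LFCR and Obese was 0.19 (95% interval -0.03 to 0.41, adjusted p = 0.224) and -0.08 with voom scaled by total reads, so no direction is given. It passed in none of the 12 diet comparisons in limma.

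Elovl3, an elongase of saturated and monounsaturated chains known from brown fat and skin, varied widely between libraries of 1 group. It held 18.5, 2.04, 36.2, 33.3 and 393 normalized counts in Control, 10.6, 11.0, 11.97, 0.747 and 12.5 in Obese and 0, 0, 42.6, 216 and 195 in LFD. Control 5, LFD 4 and LFD 5 were far above their own groups, and the same libraries had the highest means of the brown and beige adipocyte markers (9.33, 9.33 and 9.17, log2). Ucp1, the uncoupling protein that defines brown and beige fat, stood at 3648, 2484 and 2879 normalized counts in these 3 libraries. Elovl3 held 41.5, 250, 58.6, 173 and 37.9 in LFCR, all above Obese, where Ucp1 ran only from 4.02 to 51.2. Over the whole brown and beige marker list the summed count was 1366 to 4371 in LFCR, against 254 to 644 in Obese. In MCR it ran from 6.06 to 72.5 and in ICR from 3.76 to 45.3. The log2 difference of Elovl3 between LFCR and Obese was 1.97 ± 0.76 (adjusted p = 0.0639, limma), and with the brown and beige marker mean as a covariate it was -0.04. Elovl3 passed with the B cell mean as a covariate (2.02, adjusted p = 0.0434) and when LFCR and Obese were fitted alone (1.97, 0.0110), and voom on the recovered reads gave 3.57 (0.0993). Over the 29 libraries Elovl3 and that marker mean had a Pearson r of 0.84 (0.86 for deviations from group means), a description of values that share libraries.

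Adipocyte markers moved with the LFCR result. Of 8 mature adipocyte markers 5 passed as higher in LFCR than in Obese, and their mean was 16.3 ± 0.26 (log2) against 15.2 ± 0.54. With that mean as a covariate, Elovl6 (4.43, adjusted p = 0.00620), Scd1 (1.32, 0.0118), Scd3 (0.79, 0.0423), Fads2 (1.05, 0.0393) and Elovl1 (-0.35, 0.00393) still passed in limma. Scd2 (1.19, adjusted p = 0.165) and Fads1 (0.30, 0.403) did not. Of 6 brown and beige markers 3 passed as higher in LFCR, and with their mean as a covariate 4 genes passed, namely Scd1, Scd3, Elovl1 and Elovl6. Scd2 (1.18, 0.173), Fads1 (0.82, 0.0968) and Fads2 (0.95, 0.0611) did not pass in that fit. In the 4 lanes that hold both groups, Scd1 was higher in LFCR by 1.40 to 3.84 and Elovl6 by 4.95 to 7.18.

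With MCR, 3 genes rose and 1 fell relative to Obese, 4 of 10 against 12.4% of all genes tested (6.66% higher, 5.69% lower). Elovl6 rose to 27033 ± 21786 normalized counts (n = 4), a ratio of 32.9 (log2 difference 4.61 ± 0.97, adjusted p = 0.00308, limma). Scd1 rose by 2.07 ± 0.50 (adjusted p = 0.00761), Scd3 by 0.99 ± 0.28 (0.0222), and Elovl1 fell by 0.22 (0.0338). Scd2 (1.48, adjusted p = 0.0533), Fads1 (0.83, 0.0531) and Fads2 (0.78, 0.0777) missed the threshold, although Fads2 was 1 of 3 genes without overlap (11.0% of all genes), beside Scd1 and Elovl6. Scd3 was lost without Obese 2 (0.0654), Obese 3 (0.0501), MCR 1 (0.110) or MCR 3 (0.0989), and Elovl1 without each of Obese 1 (0.0724), Obese 3 (0.0707), Obese 5 (0.0827), MCR 1 (0.0839), MCR 2 (0.0595) and MCR 4 (0.0773). Without MCR 2, 3 genes were gained: Scd2 (1.76, 0.0216), Fads1 (1.11, 0.00613) and Fads2 (0.93, 0.0323). Without MCR 4, Scd2 passed (1.88, 0.0231), and Fads1 passed without Obese 1 (1.01, 0.0193) or Obese 5 (0.97, 0.0291). Of 6 macrophage markers 4 were lower in MCR (summed count 9977 to 17847, against 15600 to 27381 in Obese), 3 of 6 brown and beige markers were higher (1407 to 3482, against 254 to 644) and 2 of 8 adipocyte markers were higher. With the luminal or the brown and beige marker mean as a covariate 1 of the 10 genes passed, with the adipocyte mean 2, and a macrophage covariate was not tested. MCR 2 is the only MCR library with high B cell markers. Without the 8 lymphoid-poor libraries MCR kept that library alone, its variance assumed to be that of the other groups, and 0 genes passed.

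With ICR, Scd1 alone passed, at 1545555 ± 434134 normalized counts (n = 5), a ratio of 3.22 to Obese (log2 difference 1.73 ± 0.47, adjusted p = 0.0202, limma). This is 1 of 10 genes against 9.21% of all genes, of which 3.99% were higher, so the share is near the background. The call was lost without Obese 2 (0.0649) or ICR 4 (0.0510). Scd3 passed without Obese 5 (0.94, 0.0375) or ICR 5 (0.91, 0.0403), and Elovl1 without Obese 4 (-0.22, 0.0394). Elovl6 differed by 2.48 (95% interval 0.59 to 4.37, adjusted p = 0.0912). Elovl6 and Scd1 were the 2 genes without overlap (8.84% of all genes). Scd2 showed a difference of 0.05 (-0.93 to 1.02, adjusted p = 0.969). In ICR 3 of 6 macrophage markers were lower (summed count 13766 to 17150) and 2 of 8 adipocyte markers were higher. With the adipocyte mean as a covariate the Scd1 difference was 0.70 (adjusted p = 0.103, limma).

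Each restricted diet was then set against the unrestricted low-fat diet. Only LFCR used the same kind of food by the description given. MCR also differed in food, so food and restriction cannot be told apart there, and the restriction of ICR was intermittent. With LFCR 3 genes were higher than with LFD, against 9.60% of all genes (6.29% higher): Elovl6 (log2 difference 3.40 ± 0.92, adjusted p = 0.0244, limma), Scd1 (1.81 ± 0.47, 0.0212) and Scd3 (0.85 ± 0.27, 0.0441). Groups did not overlap for Elovl6 and Fads1 (8.07% of all genes), while LFD 5 reached the LFCR range for Scd1. Scd1 was lost without LFD 1 (0.0662), LFD 3 (0.0610), LFCR 1 (0.0553) or LFCR 2 (0.0576), Elovl6 without LFD 1 (0.0741), LFD 3 (0.0728) or LFCR 2 (0.0681), and Scd3 without any library but LFD 5 and LFCR 5 (0.0597 to 0.121). Scd2 (1.41, adjusted p = 0.0590) passed without LFD 2 (0.0382) or LFCR 5 (0.0343). With lane as a term 0 of the 3 passed: Scd1 differed by 1.68 (adjusted p = 0.0586, limma), Elovl6 by 3.07 (0.0614) and Scd3 by 0.83 (0.0944). In the 4 lanes that hold both groups, Elovl6 was higher in LFCR in 4 and Scd1 in 3. Of 10 luminal epithelium markers 8 were lower in LFCR than in LFD and 1 was higher (summed count 21183 to 29963, against 20126 to 67697), and 3 of 6 macrophage markers were lower (6511 to 17482, against 12530 to 20522). With the luminal mean as a covariate Scd1 alone passed (2.17, adjusted p = 0.0485), and with the adipocyte mean 0 genes did. MCR and ICR differed from LFD in 0 of 10 genes in limma, against 0.294% and 0.0309% of all genes. Voom also called 0, and at an unadjusted p under 0.05 there were 2 genes for MCR (Scd1 and Scd2) and 0 for ICR.

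The formerly obese groups were also set against lean Control mice. LFD differed from Control in 0 of 10 genes (0% of all genes, with 0 at an unadjusted p under 0.05 and 0 by voom), and the interval for Scd1 was -0.75 to 1.19. With LFCR 4 genes were above Control, against 38.1% of all genes (20.1% higher): Scd1 (2.03 ± 0.47, adjusted p = 0.00307, limma), Elovl6 (2.84 ± 0.92, 0.0201), Fads1 (1.14 ± 0.26, 0.00295) and Scd3 (0.82 ± 0.27, 0.0208). The 4 of 10 are close to the share in either direction. Scd1 and Fads1 were the 2 genes without overlap (21.1% of all genes). Elovl6 was lost without Control 1 (0.0707) or Control 2 (0.0779), Scd3 without Control 1 (0.0779), Control 2 (0.0649) or LFCR 4 (0.0511), and the uncalled Scd4 (-0.41, adjusted p = 0.0813) passed as lower without Control 5 (0.0404) or LFCR 2 (0.0274).

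All 8 mature adipocyte markers were higher in LFCR than in Control, and with their mean as a covariate none of the 10 genes passed: Scd1 differed by 0.11 (adjusted p = 0.957, limma), Fads1 by 0.20 (0.879) and Elovl6 by 0.78 (0.892). Over the other settings the number of all genes passing ran from 3 to 10307, against 7383 in the main fit. The loss of these calls is therefore not read as particular to the 10 genes. With MCR, Fads1 alone was above Control (0.93 ± 0.28, adjusted p = 0.0214, limma), 1 of 10 against 29.6% of all genes (13.9% higher). Fads1 was lost without Control 1 (0.0517), Control 2 (0.0691), MCR 1 (0.0969), MCR 3 (0.0975) or MCR 4 (0.0513), and Scd1 (1.29, 0.0531) passed without Control 4 (0.0202), Control 5 (0.0411) or MCR 2 (0.0158). All 13 B cell and all 6 T cell markers were lower in MCR than in Control, the B cell sum being 4566 to 98528 against 56193 to 253402. Fads1 differed by 0.39 (adjusted p = 0.389, limma) with the B cell mean as a covariate, by 0.09 (0.997) without the lymphoid-poor libraries, which leaves MCR 2 alone, and by 0.15 (1.00) with the adipocyte mean. Over the 29 libraries Fads1 and the B cell mean had a Pearson r of -0.64 (-0.66 for deviations from group means). With the mature adipocyte mean it was 0.86 (0.71) and with the Schwann cell mean 0.75 (0.65), so Fads1 did not follow B cell markers alone. ICR differed from Control in 0 of 10 genes, against 4.58% of all genes, with 1 (Fads1) at an unadjusted p under 0.05 and 0 by voom.

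Whether the 3 restricted diets differ from each other was tested with a limma F-test, in which 0 of 10 genes and 0% of all genes passed. At an unadjusted p under 0.05 there were 3, Scd2, Scd3 and Elovl6, and voom called 0. The widest contrast was ICR against LFCR, where Elovl6 differed by -3.54 (95% interval -5.43 to -1.66, adjusted p = 0.158, limma) and Scd2 by -1.68 (-2.66 to -0.71, 0.176). Scd1, Scd3 and Elovl6 were lower in ICR without overlap, against 2.69% of all genes.

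Ratios of Scd1 to Elovl6 and to Scd2 were taken within each library, and the ranges of several groups overlapped. The median ratio of Scd1 to Elovl6 counts was 645 in Obese, 306 in ICR, 266 in LFD, 151 in Control, 80.8 in MCR and 58.6 in LFCR. All 5 LFCR ratios (34.5 to 83.3) were below all 5 Obese ratios (363 to 800), and ICR libraries spread from 67.1 to 1077. The median ratio of Scd1 to Scd2 was 300 in ICR and 75.2 to 155 in the other groups, where Scd2 counts may hold misplaced Scd1 reads in any group. These ratios are given as a description and were not tested.

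**Figure D4:**
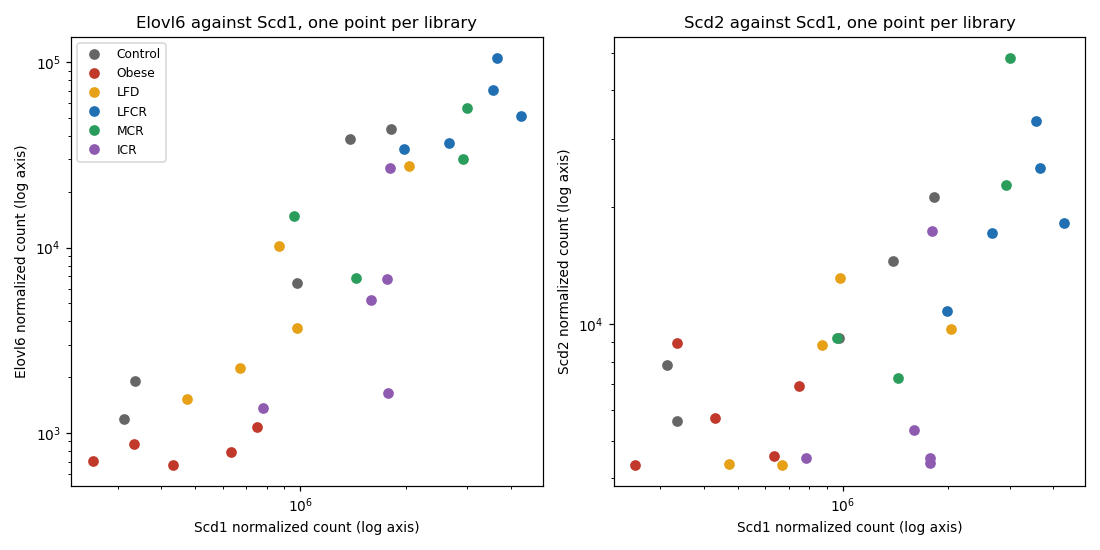
Each point is 1 library, with the Scd1 normalized count on the horizontal axis and that of Elovl6 (left) or Scd2 (right) on the vertical axis, both logarithmic, coloured by group. Pearson r over the 29 libraries on the log2 scale was 0.87 for Elovl6 and 0.69 for Scd2, and 4 of the 5 ICR libraries have Scd2 counts of 4369 to 5325 at Scd1 counts of 782491 to 1777232.

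Over the 29 libraries, which share the 6 groups and their scaling, Pearson r on the log2 scale was 0.93 between Scd1 and Scd3, 0.87 between Scd1 and Elovl6, 0.85 between Scd1 and Fads1 and 0.83 between Scd2 and Elovl6. It was 0.05 between Scd1 and Scd4 and -0.63 between Elovl1 and Elovl6, where the deviations from group means gave only -0.10. Among 14696 other genes ranked by the same measure, those most like Elovl6 were Acss2, the acetyl-CoA synthetase (0.98), Slc2a5, a fructose transporter (0.98), and Parm1 (0.98). Scd1 was most like Sccpdh (0.97), Mpc1-ps and Mpc1, the mitochondrial pyruvate carrier and a copy annotated as a pseudogene, whose values may share reads (0.96 to 0.97). Scd2 was most like Dhcr7, Acly and Fdps (0.91 to 0.93), of which Dhcr7 and Fdps make sterols and Acly makes acetyl-CoA.

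Scd3 was most like Coasy, Aldh4a1 and Ldhd (0.89 to 0.90), Fads1 like Isoc1, Clpp and Met (0.92 to 0.93) and Fads2 like Parm1, Tmem79 and Slc2a5 (0.83 to 0.84). Elovl1 was most like Lipa, the lysosomal acid lipase, Cd300ld and Ap2m1 (0.85 to 0.86). Elovl3 was most like Cidea, a lipid droplet protein listed here among the brown and beige markers, Aspg and Chchd10 (0.83 to 0.86). Scd4 had no close match, the highest being Gm45140, Krba1 and Pan2 (0.67 to 0.69).

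The rest of the pathway was counted from lists. Genes named from a list were mainly those with the smallest adjusted p for LFCR against Obese (limma). They were thus picked by their result and need not be typical of the list. The share of all genes higher was 11.9% in LFCR, 6.66% in MCR and 3.99% in ICR against Obese, and 5.98% passed in either direction in LFD. Counts of 1 or 2 in a list of 6 or 7 are too few to be read against those shares, and are given as counts. Of 9 genes of fatty acid synthesis before desaturation, 8 rose and 0 fell in LFCR against Obese, with a median log2 difference of 3.47. Fasn, the fatty acid synthase, rose by 6.29, Acaca, the acetyl-CoA carboxylase, by 5.03 and Acss2 by 4.32. The same list gave 8 higher in MCR, 3 in ICR and 2 in LFD against Obese with 0 lower, and 3 lower and 0 higher in Obese against Control, including Fasn (-3.61) and Acaca (-2.76). Of 6 partners that complete the elongation cycle, 2 rose in LFCR, the reductases Tecr (1.26) and Hsd17b12 (1.36). Among those that did not pass, the dehydratase Hacd4 differed by -0.63. In MCR the count was 2 higher, in LFD 1 and in ICR 0.

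Of 6 genes that supply electrons to the desaturases, Cyb5a, the cytochrome b5 of the endoplasmic reticulum, rose in LFCR (0.88) and Cyb5r2, a cytochrome b5 reductase, fell (-0.93). Cyb5b differed by 0.65 and did not pass. In MCR, ICR and LFD, 1 of the 6 fell and 0 rose. Of 7 other desaturases and elongases 6 were tested and none passed in LFCR, MCR or ICR against Obese. In Obese against Control 2 of the 6 rose, Fads3, a related front-end desaturase (1.75), and Degs1, a sphingolipid desaturase (0.70), and Elovl4 fell (-0.71). In LFD against Obese, which shares the Obese libraries, Fads3 (-1.12) and Degs1 (-0.58) fell and Elovl4 (0.84) and Elovl7 (0.92) rose. Of 7 acyl-CoA synthetases and binding proteins 3 rose in LFCR, among them Acsl1 (1.64), and 2 fell, Acsl5 (-0.35) and Acsl6 (-1.18). In ICR 2 rose and 2 fell, and in MCR 0 rose and 1 fell. Of 15 regulators 7 rose in LFCR, 8 in MCR, 4 in ICR and 1 in LFD with 0 lower. In LFCR they included Thrsp, a lipogenic nuclear protein (5.32), Srebf1, which encodes SREBP-1 (1.67), and Ppara (1.98). In Obese against Control 1 of the 15 fell, Thrsp (-2.96), and 0 rose. All these calls are from limma with adjustment over all genes tested.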

How the data were processed

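Per the labels' protocols, mammary fat RNA went into stranded libraries read from both ends, 76 bases each. The tools named in the submitters' processing notes are HTSeq 0.5.3p9, TopHat2 2.0.7 and DESeq2, on mm10. No source used here gives the annotation, counting options or strand setting. The authors deposited 1 table of log2 values from a variance-stabilizing transform, 30818 genes in 29 libraries, which compresses differences of low genes. That transform is inferred from the values. Inverting it gave normalized counts and whole reads, 100% of them whole within 0.01.

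The deposited log2 values were tested with limma 3.58.1 (trend and robust moderation, statmod 1.5.0, R 4.3.3) over all 29 libraries with 1 mean per group. Genes with a normalized count of at least 10 in at least 4 libraries were kept (19387), p-values were Benjamini-Hochberg adjusted over them, and an adjusted p under 0.05 passed. The 12 diet comparisons, the F-test and the pairs it covers were fitted on the whole deposited table. The script was tested on simulated data with known changes before use. Voom was run on the recovered reads as an alternative, with other scalings, filters, covariates and left-out libraries. The normalized count is the inverted value, and a ratio of mean counts is on that scale. Depth and the number of libraries per group limit the precision.

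The 10 genes and the lists were chosen with earlier results of these data known. Genes most like each member were the 3 with the highest Pearson r among genes with a mean count of at least 50. Those of Elovl5 are not reported here. Lane is the number at the end of the table's column names. The 8 lymphoid-poor libraries had a B cell marker mean under 9. Replicate numbers follow accession order.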

Additional observations from a re-analysis of the deposited data

Results flagged for a closer look

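In 60 sets of libraries, each a gene in a group, 7 had a library far from its group by a gap rule on normalized counts. The nominal rate of that rule, about 1 in 20, holds for independent and normally distributed values. Normalized counts need not be normal and the sets share libraries, so 7 of 60 is not read as an excess. In ICR, library 3 was the highest for Scd2 (17338 normalized counts, next 5325), Fads2 (1167, next 542) and Elovl6 (26816, next 6772), and library 5 was the lowest for Scd1 (782491, next 1597795). LFCR 1 was the highest LFCR library for Elovl1 (1179, next 1059). Elovl3 stood apart in Control 5, the highest (393, next 36.2), and in Obese 4, the lowest (0.747, next 10.6).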

How the results depend on the processing

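Over all comparisons the 10 genes gave 22 calls, of which 279 of 352 values under other settings and 171 of 215 values with 1 library left out kept the call. 11 of the 22 held without each library in turn. The count for LFCR against Obese, 7, was 7 without any library and 4 with the brown or beige marker mean as a covariate. With 1 library left out the counts ran from 0 to 2 for Obese against Control, 0 to 1 for LFD, 2 to 6 for MCR and 0 to 2 for ICR against Obese, 0 to 4 for LFCR against LFD, and 2 to 5 for LFCR and 0 to 2 for MCR against Control. Counts under other settings that differed by over 1.5 times from the main one are grouped here by comparison. For Obese against Control (2) they were 1 with no filter, with the B cell mean as a covariate or without lane 4, 4 with the adipocyte mean, and 0 without the lymphoid-poor libraries, with the brown or beige mean or in a fit of only these groups. For LFD against Obese (0) they were 1 with the B cell or the adipocyte mean. For MCR against Obese (4) they were 0 without the lymphoid-poor libraries, 1 with the luminal or the brown or beige mean, and 2 with the adipocyte mean or only these groups. For ICR against Obese (1) they were 2 with voom scaled by total reads, with or without the members, 3 without the lymphoid-poor libraries or with the B cell mean, and 0 with quantile normalization, the luminal mean or without lane 4. For LFCR against LFD (3) they were 0 with lane as a term, without the lymphoid-poor libraries, with the adipocyte mean or without lane 4, and 1 with the luminal mean. For LFCR against Control (4) the count was 0 with the adipocyte mean, where the Scd3 difference was reversed, at -0.052 (adjusted p = 0.971). For MCR against Control (1) they were 2 with the filter of 50, voom, no trend or robust moderation, the luminal or brown or beige mean, or without lane 4, and 0 without the lymphoid-poor libraries, with the B cell or adipocyte mean or only these groups. For ICR against Control (0) they were 1 without the lymphoid-poor libraries or with the brown or beige mean. The causes were not tested. The number of all genes passing also moved over the other settings. It ran from 3 to 10307 for LFCR against Control (7383 in the main fit) and from 101 to 3508 for MCR against Obese (2395). For LFCR against LFD it ran from 19 to 4120 (1862). A changed count of members is therefore not read as particular to them. Leaving out lane 4 and the brown or beige covariate were chosen after seeing the data. No paired analysis was possible because replicate numbers follow accession order and tie no libraries across groups, and lane, which libraries of several groups share, was fitted as a term in its place. Depth limits Scd3, Scd4 and Elovl3, which had few reads.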
